A study of Mus musculus with 32 samples.

Results

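The genes described here are 7 matrix metalloproteases (Mmp2, Mmp3, Mmp9, Mmp11, Mmp13, Mmp14 and Mmp15) and 3 tissue inhibitors of metalloproteases (Timp1, Timp2 and Timp3). They were taken by name from the 24454 gene IDs of a table of read counts, and all 10 were found and passed the filter on low counts. The libraries were made from poly(A) RNA of 32 patches of a single reporter colour, cut by laser from fixed sections of female mice with 3 engineered alleles, MMTV-PyMT, R26-CBW and K8-CreERT2. MMTV-PyMT is a viral oncogene under a promoter active in mammary epithelium, and it drives mammary tumours that pass through graded stages. R26-CBW is a multicolour reporter switched on by K8-CreERT2, a Cre recombinase driven by the keratin 8 promoter and active after tamoxifen. Every animal received 5 mg tamoxifen at 5 weeks of age, and regions were cut when the tumours had reached the largest volume allowed. The regions were 3 of normal gland, 5 of hyperplasia, 8 of adenoma, 9 of carcinoma and 7 of lung metastasis. All groups, normal gland included, came from animals that carry the oncogene, received tamoxifen and bear tumours. By label, 3 hyperplasia, 3 adenoma and 6 carcinoma regions lay in the tumour core and 1, 3 and 3 at its border, 1 hyperplasia and 2 adenoma regions lay outside, and of the metastases 4 were labelled lung border and 3 lung centre. Normal 28 and normal 30 were pooled from several places, and normal 18 was placed in the tumour core by its label. The series states 3 animals without tying regions to them, so some regions share an animal. The p-values over regions given below take regions as independent, so they are not reliable and may be too small.

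Matrix metalloproteases are zinc enzymes made as inactive precursors that cut proteins of the extracellular matrix and other proteins around the cell. Tissue inhibitors of metalloproteases bind the active site and block it. In mammary gland and its tumours many of these enzymes are made by fibroblasts and immune cells rather than by the epithelium, and the membrane-bound enzymes are also made by epithelial cells. Members fall into gelatinases (Mmp2 and Mmp9), a collagenase (Mmp13), stromelysins (Mmp3 and Mmp11), enzymes anchored in the membrane (Mmp14 and Mmp15), and inhibitors.

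Total counts per library ran from 2688611 to 19585351, and 10258 to 17667 genes had a count. One ID with no symbol held between 5.20 and 78.9% of the counts. It held 78.9% in metastasis 40, 57.5% in adenoma 51, 56.5% in hyperplasia 33, 53.6% in carcinoma 39 and 52.1% in metastasis 42. The 3 libraries of fewest genes were adenoma 51, hyperplasia 22 and metastasis 42. Epithelial identity was measured in every library: 9 luminal epithelium genes, among them Krt8 and Krt18, summed to 1108 to 4456 CPM (counts scaled to a common library size, with TMM factors). By stage that sum was 1108 to 1795 CPM in normal gland, 1410 to 3402 in hyperplasia and 1616 to 4009 in adenoma. It was 1962 to 4456 CPM in carcinoma, above every normal region, and 1764 to 2840 CPM in metastasis. The TMM factors were 0.314, 0.425, 0.728, 0.655 and 0.574 in metastasis 40, adenoma 51, hyperplasia 33, carcinoma 39 and metastasis 42. Low factors raise the CPM of a library. Markers of other cell types differed between stages too. The summed level of 10 fibroblast genes, led by Col1a2 and Col1a1, was 643 to 2863 CPM in normal gland, 92.6 to 835 in hyperplasia, 25.4 to 1330 in adenoma, 21.6 to 2391 in carcinoma and 29.0 to 215 in metastasis. The sum of 6 adipocyte genes, led by Cfd and Fabp4, was at most 0.305 CPM in metastasis, where 4 of the 6 were at 0, against 80.4 to 716 CPM in normal gland. The sum of 7 lung epithelium genes, led by Sftpc and Sftpa1, was 402 to 4571 CPM in metastasis and at most 62.2 CPM elsewhere. The part of these cells in the values below was not tested, and fewer cells of a type and less RNA per cell cannot be told apart in captured tissue.

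Mmp3 and Mmp13 lie on one chromosome, were at or near 0 in many regions and stood high in a few. Their promoters are shown with that of Mmp14, which was measured in every region, because its window differs from theirs in base composition and motifs. Each window runs from 250 bases before to 50 after the listed start, from RefSeq on GRCm38.p6, 5′ to 3′ on the gene's strand. They are chr9:7445572-7445871 (plus strand) for Mmp3, chr9:7272264-7272563 (plus strand) for Mmp13 and chr14:54431348-54431647 (plus strand) for Mmp14. Capitals mark TGAGTCA or its reverse complement TGACTCA, the letters bound by AP-1 factors, and TATAAA, the TATA box.
Mmp3: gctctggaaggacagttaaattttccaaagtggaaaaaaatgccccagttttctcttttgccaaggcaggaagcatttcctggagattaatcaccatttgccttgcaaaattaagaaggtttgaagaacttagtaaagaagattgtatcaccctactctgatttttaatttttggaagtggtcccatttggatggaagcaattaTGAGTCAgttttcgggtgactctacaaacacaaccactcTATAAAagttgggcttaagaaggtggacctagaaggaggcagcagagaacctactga
Mmp13: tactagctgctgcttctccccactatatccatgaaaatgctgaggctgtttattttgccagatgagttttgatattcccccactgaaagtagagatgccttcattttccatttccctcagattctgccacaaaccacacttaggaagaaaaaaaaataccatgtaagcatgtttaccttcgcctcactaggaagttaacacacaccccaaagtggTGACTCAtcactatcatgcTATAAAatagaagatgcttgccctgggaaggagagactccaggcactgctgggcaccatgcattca
Mmp14: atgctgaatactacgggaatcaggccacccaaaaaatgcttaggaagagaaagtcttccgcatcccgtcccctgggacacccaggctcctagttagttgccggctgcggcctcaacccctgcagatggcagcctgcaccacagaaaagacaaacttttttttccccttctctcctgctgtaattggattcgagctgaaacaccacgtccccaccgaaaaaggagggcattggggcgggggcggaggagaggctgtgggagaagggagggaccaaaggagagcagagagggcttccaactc
Of the 10 genes, 8 had a window in the table, and Mmp2 and Mmp9 did not. The AP-1 letters were found in 2 of the 8 windows, those of Mmp3 (46 bases before the start) and Mmp13 (35 bases before it), with both strands searched, against 5.20% of 32851 windows of all genes. The same pair held TATAAA on either strand, present in 13.6% of all windows. The remaining 6 windows each held 1 to 4 copies of GGGCGG, the GC box, on either strand, against 35.7% of all windows with at least 1 copy, and the motifs searched do not share their letters. GC content was lowest in the Mmp3 window and 43.7% in that of Mmp13, both under the median of 52.7% over all windows, and it was above that median in the other 6, up to 68.7% for Timp2. Mmp11, like Mmp3 counted in 19 libraries, had a window of 67.0% GC with 4 GC boxes and no AP-1 or TATA letters. These are descriptions of letters and not of binding.

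Across stages, the level of Mmp14 differed by a joint edgeR test, and by edgeR without added terms no member passed in a comparison of a pair of groups. DESeq2, limma voom and edgeR with a term for detected genes called members in some pairs, as given below. The test of any difference between the 5 stages (edgeR quasi-likelihood F test, Benjamini-Hochberg adjusted p under 0.05 over 19907 genes) called 2 of the 10 members, Mmp14 and Mmp9, each with an adjusted p of 0.0408. Mmp9 had 10 or more counts in 3 metastases and nowhere else, so it passed the filter only through the stage where it is high, and its call is given as a value without support for a difference. Of all genes tested, 3.58% were called. At an unadjusted p under 0.05 there were 4 members, these with Mmp2 and Timp3, against 20.9% of all genes. Mmp2 had an adjusted p of 0.0710 and Timp3 of 0.0965, and those of the other 6 members were from 0.258 for Mmp13 to 0.741 for Timp1. The call of Mmp14 was lost in 9 of 32 fits that left out 1 library, those without normal 30, adenoma 24, 25, 36, 47 or 50, carcinoma 7 or 55, or metastasis 2, with adjusted p from 0.0100 to 0.0590 over the 32. Without the 3 libraries of fewest genes it was 0.0606 for Mmp14 and 0.0759 for Mmp9. The call of Mmp9 was lost in 9 of the 29 fits in which the gene passed the filter, with adjusted p from 0.0364 to 0.0535: those without hyperplasia 21, 22 or 44 or adenoma 24, 25, 34, 36, 48 or 51. It was not tested without metastasis 2, 40 or 56, where the gene fell under the filter, and limma voom gave 0.218 for it and edgeR with a term for detected genes 0.120.

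**Figure D1:**
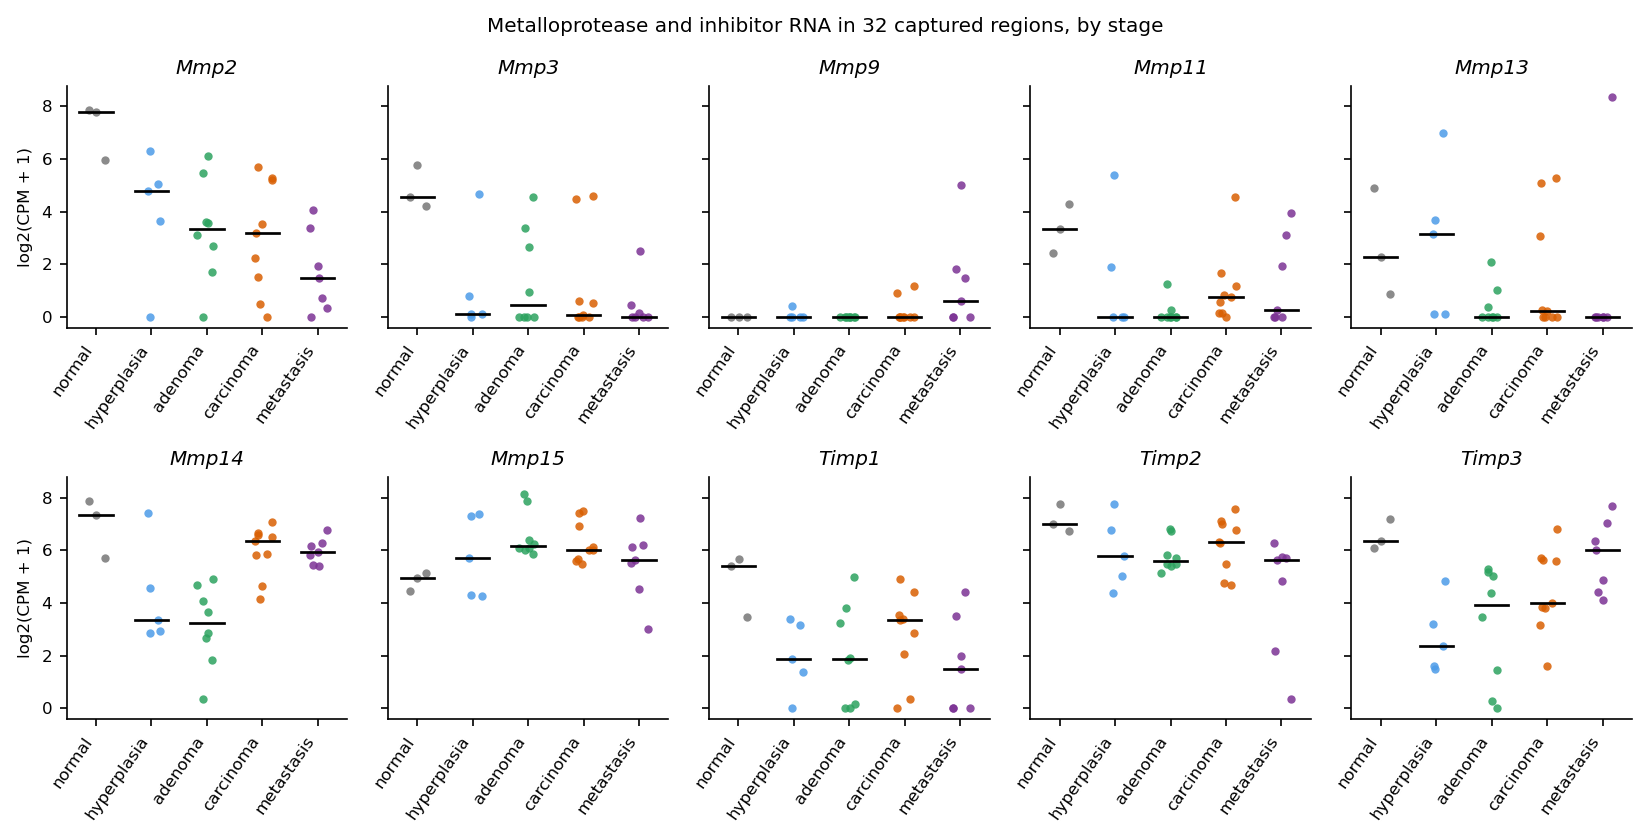
log2(CPM + 1) of each of the 10 genes in every region (points), by stage from normal gland to metastasis, with the stage median (bar). Adenoma has the lowest Mmp14 median (8.86 CPM) and the lowest single region (0.285 CPM), and Mmp9 is at 0 in all normal and adenoma regions.

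Per kilobase of exon, the mean level over the 32 libraries was 19.6 CPM per kb for Timp2, 15.4 for Mmp15, 10.7 for Timp1, 9.79 for Mmp14 and 9.10 for Mmp2. It was 6.86 CPM per kb for Mmp13, 5.09 for Timp3, 3.60 for Mmp3, 1.46 for Mmp11 and 0.34 for Mmp9. Neighbours in this order lay within 1 SD of each other over libraries. Without metastasis 42 the Mmp13 mean was 3.15 CPM per kb, below Timp3 and Mmp3, and without metastasis 40 that of Mmp9 was 0.0671. Mmp14, Mmp15 and Timp2 had a count in all 32 libraries, Timp3 in 31, Mmp2 in 28 and Timp1 in 25. Mmp3 and Mmp11 had a count in 19 each, Mmp13 in 17 and Mmp9 in 7. The mean was highest in normal gland for 7 of the 10 members, against 25.4% of all genes tested. The exceptions were Mmp15, highest in adenoma, and Mmp9 and Mmp13, highest in metastasis. Without metastasis 42 the Mmp13 mean was 0 in metastasis and highest in hyperplasia. Without normal 28 the highest mean was in metastasis for Timp3 and in hyperplasia for Mmp11, and Mmp11 was also highest in hyperplasia without hyperplasia 21, 33 or 46.

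**Figure D2:**
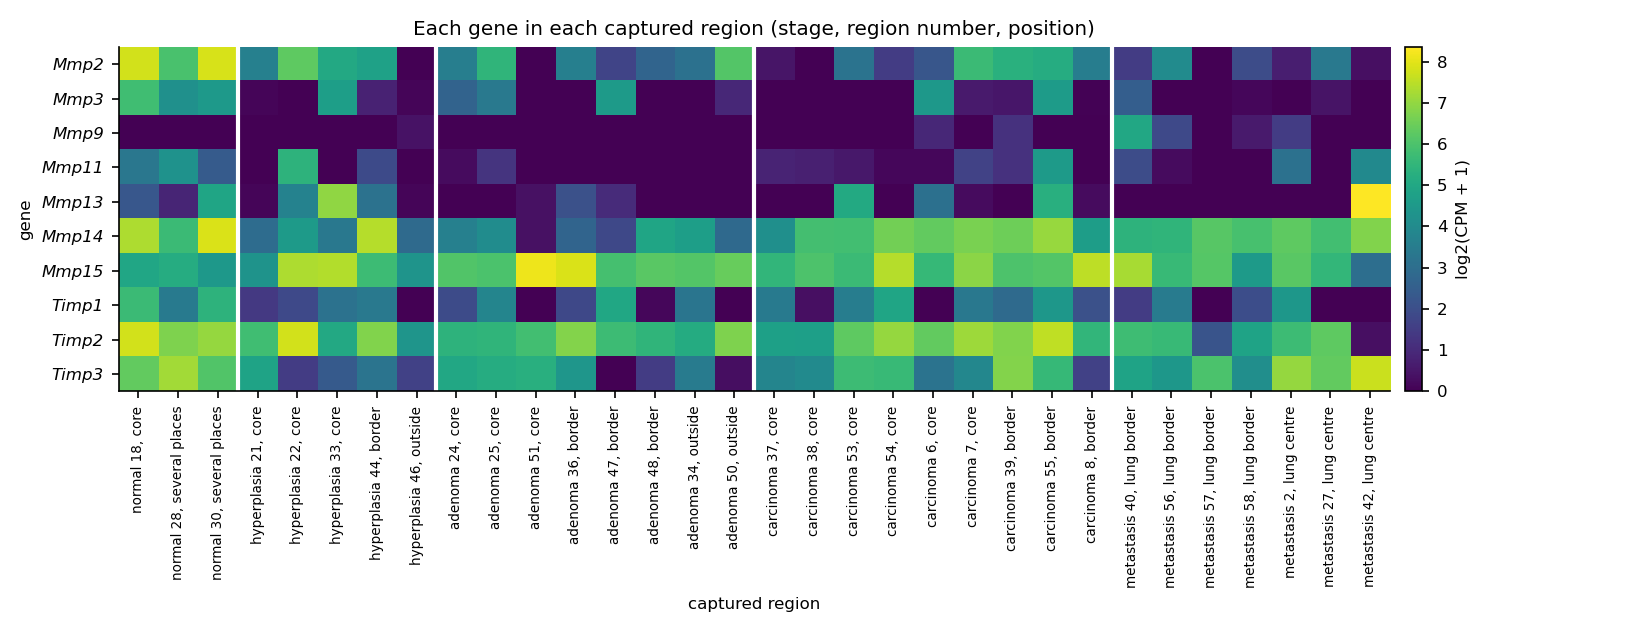
Heat map of log2(CPM + 1), one row per gene and one column per captured region, ordered by stage and labelled with region number and position; white lines part the stages. Mmp15 and Timp2 are measured across nearly all columns, and Mmp13 is brightest in metastasis 42 (326 CPM).

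Mmp2 (gene ID 17390, chr8:92827290-92853421, plus strand), a secreted gelatinase that cuts basement membrane collagen and denatured collagen, was most abundant in normal gland. It had 217, 60.5 and 229 CPM in normal 18, 28 and 30. In hyperplasia it had 11.5, 26.6, 77.2, 31.8 and 0 CPM in regions 21, 44, 22, 33 and 46. The lowest, median and highest values were 0, 9.22 and 68.0 CPM in adenoma, 0, 8.12 and 51.2 CPM in carcinoma, and 0, 1.80 and 15.5 CPM in metastasis. Every carcinoma region lay below every normal region, while hyperplasia and adenoma each had 1 region above normal 28. The mean was 16.6 ± 19.5 CPM in carcinoma (SD, n = 9), against 169 ± 93.9 CPM in normal gland (n = 3). The log2 change was -3.35 ± 1.26 (SE), with an edgeR adjusted p of 0.400, and limma voom called it at 0.00268. Across 32 libraries, which share animals and differ in depth and stage, Mmp2 had a Spearman rho of 0.72 with the summed adipocyte genes and 0.68 with the summed fibroblast genes. Without the 3 libraries of fewest genes these were 0.65 and 0.62.

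Mmp9 (gene ID 17395, chr2:164940326-164955850, plus strand), the other gelatinase and one carried by neutrophils and macrophages, was the sparsest member. It had 0 counts in all 3 normal and all 8 adenoma regions, which allows up to 0.149 CPM over normal gland and 0.0361 CPM over adenoma (3 counts over the group, counting error only). In hyperplasia it had 4 counts, all in region 46. In carcinoma it had 8 counts in region 6 and 6 in region 39, and none in the other 7. In metastasis it had 31.5 CPM (157 counts) in region 40, 2.56 in 56, 1.80 in 2 and 0.508 in 58, and none in 27, 42 and 57. The metastasis mean of 5.19 ± 11.6 CPM (SD, n = 7) thus rested on metastasis 40, without which it was 0.811 CPM. In metastasis 9 neutrophil genes, led by S100a8 and S100a9, summed to 129 to 1018 CPM. That sum was 2.45 to 54.8 CPM in carcinoma and 83.7 to 399.9 CPM in normal gland, where Mmp9 was at 0. Most of the sum in normal gland was S100a8, with a mean of 203 CPM, against 236 CPM in metastasis. S100a9 averaged 0.593 CPM in normal gland and 115 CPM in metastasis, so the sum does not stand for the whole list in normal gland. Metastasis 40 had the lowest neutrophil sum of the 7 metastases. Over all libraries the rho of Mmp9 was 0.17 with the neutrophil sum, 0.09 with a sum of 9 macrophage genes and 0.56 with the lung epithelium sum. Mmp9 had a count in only 7 libraries, of which 4 were metastases, and the lung epithelium sum was high only in metastasis. The value of 0.56 thus repeats the stage and is not read. Which cells the Mmp9 RNA came from was not tested.

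Mmp13 (gene ID 17386, chr9:7272514-7283333, plus strand), the collagenase of the set and an enzyme that cuts fibrillar collagen, was high in single regions. It reached 326 CPM (1207 counts) in metastasis 42 and was at 0 in the other 6 metastases. In hyperplasia it had 124 CPM in region 33, 12.0 in 22 and 7.94 in 44, and at most 0.0889 CPM in regions 21 and 46. In carcinoma it had 37.7 CPM in region 55, 32.7 in 53, 7.47 in 6 and at most 0.194 CPM in the other 6. Normal 30 had 28.9 CPM, normal 18 had 3.796 and normal 28 had 0.807, while no adenoma region exceeded 3.18 CPM. Groups overlapped in every comparison, and the hyperplasia mean of 28.9 CPM was 5.01 CPM without region 33.

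Mmp3 (gene ID 17392, chr9:7445822-7455975, plus strand), a stromelysin that cuts many matrix proteins and activates other metalloprotease precursors, had 54.1, 17.5 and 22.2 CPM in normal 18, 28 and 30. Elsewhere it stood high in hyperplasia 33 (24.5 CPM), carcinoma 55 (23.1), adenoma 47 (22.4) and carcinoma 6 (21.1), and outside normal gland no other region passed the 9.43 CPM of adenoma 25. Hyperplasia 33 and carcinoma 55 were also the highest regions of their stage for Mmp13. The rho between Mmp3 and Mmp13 over the 32 libraries was 0.32, and 0.52 without the 3 of fewest genes.

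Mmp11 (gene ID 17385, chr10:75923221-75932502, minus strand), a stromelysin activated inside the cell by furin and known from the stroma of carcinomas, was low. It had 8.97, 18.3 and 4.31 CPM in normal 18, 28 and 30, and 41.1 CPM in hyperplasia 22 with 2.69 in 44 and 0 in the other 3. In adenoma it had 1.38 CPM in region 25, 0.181 in 24 and 0 in the other 6. In carcinoma the lowest, median and highest values were 0, 0.661 and 22.4 CPM, and in metastasis 0, 0.182 and 14.6 CPM. Hyperplasia 22 and carcinoma 55 set the means of their stages, 8.76 and 3.11 CPM, which were 0.671 and 0.693 CPM without them. Its exons share 155 bases (5.6%) with Chchd10 on the opposite strand, which averaged 51.1 to 143 CPM by stage, and without a stated strand setting their reads cannot be told apart.

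Mmp14 (gene ID 17387, chr14:54431598-54442456, plus strand), a membrane-anchored enzyme that cuts collagen and activates the Mmp2 precursor, had its lowest stage mean in adenoma, or in hyperplasia (11.2 CPM) when hyperplasia 44 was left out. It had 160, 51.1 and 237 CPM in normal 18, 28 and 30. In hyperplasia it had 6.67, 172, 22.7, 9.22 and 6.34 CPM in regions 21, 44, 22, 33 and 46, of which region 44 is the single border region and had the highest fibroblast sum of the 5, 835 CPM. The lowest, median and highest values were 0.285, 8.86 and 29.1 CPM in adenoma, 16.7, 80.4 and 133 CPM in carcinoma, and 41.5, 59.8 and 108 CPM in metastasis. Only carcinoma 37 and carcinoma 8, at 16.7 and 23.9 CPM, fell within the adenoma range, and all 7 metastases lay above all 8 adenomas. That last comparison was chosen after the values were seen, and 14 of 19907 genes (0.0703%) separated these stages in this direction. The mean was 72.5 ± 37.5 CPM in carcinoma (SD, n = 9), against 12.0 ± 10.5 CPM in adenoma (n = 8), a ratio of 6.05. The log2 change was 2.59 ± 0.66 (SE) with an edgeR adjusted p of 0.141, and from 2.37 to 2.91 with adjusted p from 0.147 to 0.186 over the fits without 1 library. DESeq2 gave an adjusted p of 0.000968, limma voom did not call it, and edgeR with a term for detected genes gave 0.0488. Over these stages the fibroblast sum had a median of 186 CPM in carcinoma and 95.1 CPM in adenoma, and the rho of Mmp14 with it was 0.27 over 32 libraries.

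Mmp15 (gene ID 17388, chr8:95352296-95374293, plus strand), another membrane-anchored enzyme, had its highest stage mean in adenoma. It had 30.0, 34.7 and 20.9 CPM in normal 18, 28 and 30. In hyperplasia it had 18.5, 51.6, 159, 168 and 18.9 CPM in regions 21, 44, 22, 33 and 46. The lowest, median and highest values were 57.7, 70.9 and 285 CPM in adenoma, 43.8, 63.8 and 182 CPM in carcinoma, and 7.03, 48.2 and 151 CPM in metastasis. Without adenoma 51 the adenoma mean was 92.8 CPM in place of 117, against 90.2 CPM in carcinoma. Every adenoma and every carcinoma region lay above all 3 normal regions, as for 1.02% of all genes in adenoma, a comparison chosen after the values were seen, and 0.894% in carcinoma. The mean was 90.2 ± 54.1 CPM in carcinoma (SD, n = 9), against 28.6 ± 7.00 CPM in normal gland (n = 3), a log2 change of 1.66 ± 0.78 (SE) with an edgeR adjusted p of 0.591. Over the 32 libraries its rho was 0.48 with the summed luminal epithelium genes, -0.42 with the endothelial genes and -0.28 with Mmp14. Without the 3 libraries of fewest genes these were 0.42, -0.26 and -0.13. The luminal sum also lay higher in every carcinoma region (1962 to 4456 CPM) than in normal gland (1108 to 1795 CPM), and its part in the Mmp15 values was not tested.

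**Figure D3:**
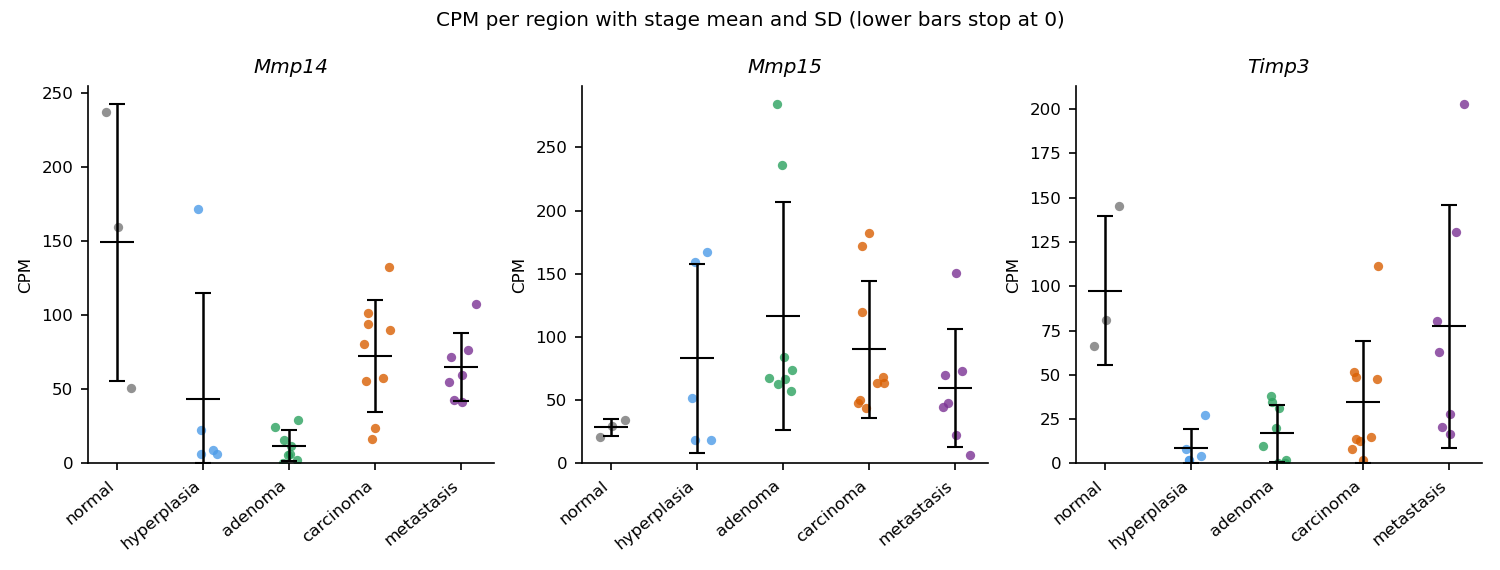
CPM of Mmp14, Mmp15 and Timp3 in each region (points) by stage, with mean (horizontal line) and SD (vertical bar, stopped at 0), n = 3, 5, 8, 9 and 7. The Mmp14 mean is lowest in adenoma (12.0 CPM; 11.2 CPM in hyperplasia without region 44), the Mmp15 mean lowest in normal gland (28.6 CPM) and the Timp3 mean lowest in hyperplasia (8.76 CPM).

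Timp1 (gene ID 21857, chrX:20870166-20874737, plus strand), a secreted inhibitor that blocks most soluble metalloproteases and is weak against membrane-anchored ones, had 50.2, 9.95 and 41.0 CPM in normal 18, 28 and 30. In hyperplasia it had 1.60, 9.40, 2.62, 7.96 and 0 CPM in regions 21, 44, 22, 33 and 46, all below the normal regions. The lowest, median and highest values were 0, 2.63 and 30.7 CPM in adenoma, 0, 9.17 and 29.3 CPM in carcinoma, and 0, 1.80 and 20.4 CPM in metastasis. Its rho with the fibroblast sum was 0.56.

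Timp2 (gene ID 21858, chr11:118301061-118355411, minus strand), an inhibitor that also links the Mmp2 precursor to Mmp14 at the cell surface, was measured in every region. It had 218, 106 and 129 CPM in normal 18, 28 and 30, and 53.8, 108, 218, 31.8 and 19.6 CPM in hyperplasia 21, 44, 22, 33 and 46. The lowest, median and highest values were 34.1, 47.9 and 112 CPM in adenoma, 25.004, 79.6 and 188 CPM in carcinoma, and 0.270, 48.5 and 77.6 CPM in metastasis. Metastasis 42 and metastasis 57 were far below the other 5, at 0.270 and 3.47 CPM. The mean was 37.4 ± 28.3 CPM in metastasis (SD, n = 7), against 90.7 ± 55.5 CPM in carcinoma (n = 9), a log2 change of -1.28 ± 0.61 (SE) with an edgeR adjusted p of 0.433. Timp2 and Mmp2 had a rho of 0.67 over the 32 libraries, the highest of the 45 pairs of members, and Timp2 had one of 0.64 with the fibroblast sum.

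Timp3 (gene ID 21859, chr10:86300412-86349505, plus strand), the inhibitor bound to the extracellular matrix and a blocker of Adam17 as well, was lowest in hyperplasia. It had 81.0, 145 and 66.5 CPM in normal 18, 28 and 30, against which every hyperplasia region was lower, with 27.6, 8.18, 1.82, 4.19 and 2.06 CPM in regions 21, 44, 22, 33 and 46. The lowest, median and highest values were 0, 15.1 and 37.96 CPM in adenoma, 2.04, 14.8 and 111 CPM in carcinoma, and 16.4, 63.2 and 203 CPM in metastasis. The mean was 8.76 ± 10.8 CPM in hyperplasia (SD, n = 5), against 97.6 ± 41.9 CPM in normal gland (n = 3). Without hyperplasia 21 the hyperplasia mean was 4.06 CPM and the log2 change -4.59. The log2 change was -3.47 ± 1.19 (SE) with an edgeR adjusted p of 0.282, and DESeq2 called it at 0.0282. Its rho with 7 endothelial genes, led by Kdr and Egfl7, was 0.56, and that summed level was 14.9 to 69.3 CPM in hyperplasia, against 87.04 to 98.997 CPM in normal gland. Of its exon bases, 1733 (21.3%) are shared with Syn3 on the opposite strand, which averaged 2.91 to 24.9 CPM by stage, so reads of these genes cannot be told apart.

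The remaining values of each pair of stages were as follows. In hyperplasia against normal gland, edgeR called 0 of 10 members and 0.0% of the 19907 genes. Timp3 alone had an unadjusted p under 0.05, against 12.4% of all genes, DESeq2 called Timp3, and limma voom called 0 members. Timp1 and Timp3 lay below normal gland in every hyperplasia region, as did 3.77% of all genes. The members' median log2 change was -1.30 with 7 of 10 lower, against 0.00 for all genes. Under DESeq2 size factors the members' median was -1.66, with 7 of 10 still lower, and that of all genes -0.35. With limma voom 9 of 10 were lower.

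In adenoma against hyperplasia, edgeR called 0 members and 0.0% of genes, and DESeq2 and limma voom called 0 members. Mmp11, Mmp13 and Mmp14 were lower at an unadjusted p under 0.05, and 14.8% of all genes met that limit in either direction. Their edgeR log2 changes were -5.33, -5.68 and -1.85 with adjusted p of 0.220, 0.209 and 0.214. Leaving out 1 library at a time, the change of Mmp11 reached -1.70 and that of Mmp13 -3.16 at the smallest. Without hyperplasia 44 the log2 change of Mmp14 was 0.10, and the hyperplasia mean was 11.2 CPM in place of 43.3.

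In carcinoma against adenoma, edgeR called 0 members and 0.0% of genes, DESeq2 called Mmp14 and limma voom called 0. Mmp11, Mmp13 and Mmp14 were higher at an unadjusted p under 0.05, against 12.6% of all genes in either direction. Mmp9 met that limit too, but it compares 14 counts in 2 carcinoma regions with 0 in adenoma, in a gene kept through metastasis, and is not read. Of the 10 members 8 were higher, with a median log2 change of 0.80 against 0.02 for all genes. The 8 include Mmp9, which is not read, and Mmp3 with a log2 change of 0.08, and the median includes Mmp9. With DESeq2 size factors 7 of 10 were higher. The Mmp11 mean without carcinoma 55 was 0.693 CPM, and that of Mmp13 was 5.07 CPM in place of 8.69.

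In metastasis against carcinoma, edgeR called 0 members and 0.0151% of genes, which were the surfactant genes Sftpa1, Sftpb and Sftpc of lung epithelium, and DESeq2 and limma voom called 0 members. Timp2 was lower at an unadjusted p under 0.05, against 10.9% of all genes in either direction. Mmp9 was higher at the same limit, but the filter on low counts had kept it through metastasis, and it is not read. The median log2 change was -0.38 over the members and -0.01 over all genes. In carcinoma against normal gland, edgeR called 0 members and 0.00502% of genes, DESeq2 called 0 members, and limma voom called Mmp2 and Mmp3. Mmp2 and Mmp15 had an unadjusted p under 0.05, against 8.17% of all genes. Mmp15 lay above normal gland in every carcinoma region, as did 0.894% of genes, and Mmp2 lay below, as did 1.25%. The members' median log2 change was -1.27 against 0.10 for all genes, and with DESeq2 size factors these were -1.69 and -0.31. These comparisons share libraries and are not independent of each other. The members' medians and counts of direction include Mmp9.

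Sites within a stage were compared next. In carcinoma, all 10 members had a lower fitted level in the 6 core regions than in the 3 border regions, with a median log2 difference of -1.01, against 41.6% of 22676 genes that were lower and a median of 0.15. With DESeq2 size factors 9 of 10 were lower, and with limma voom or a term for detected genes 8 of 10. Mmp9, counted among the 10, had 8 counts in the core and 6 at the border, each in a single region, and is not read. The pattern rested on carcinoma 55: without it 4 of 10 were lower and 6 higher, with a median of 0.14. No member passed: edgeR, DESeq2 and limma voom each called 0, 0 had an unadjusted p under 0.05 (5.71% of all genes had) and the sites overlapped for every member, while 0.503% of genes lay wholly above and 0.732% wholly below. Mmp2 averaged 10.9 ± 20.0 CPM in the core (SD, n = 6) and 28.03 ± 15.2 CPM at the border (n = 3). Without carcinoma 7 the core mean was 2.80 CPM and the log2 difference -3.34, in place of -1.35, with an unadjusted p under 0.05 and an edgeR adjusted p of 0.773. Mmp11 averaged 0.713 ± 0.748 CPM in the core and 7.89 ± 12.6 CPM at the border, where carcinoma 55 had 22.4 CPM and carcinoma 8 and 39 had 0 and 1.27. Carcinoma 55 also had the highest fibroblast sum of any carcinoma region, 2391 CPM, and the highest Mmp3, Mmp13, Mmp14 and Timp2 of the 9. In this contrast 9 of the 10 fibroblast genes had a lower fitted level in the core, with a median log2 difference of -1.96. The fibroblast sums of border regions 8 and 39 were 186 and 356 CPM, within the core range of 21.6 to 490 CPM.

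**Figure D4:**
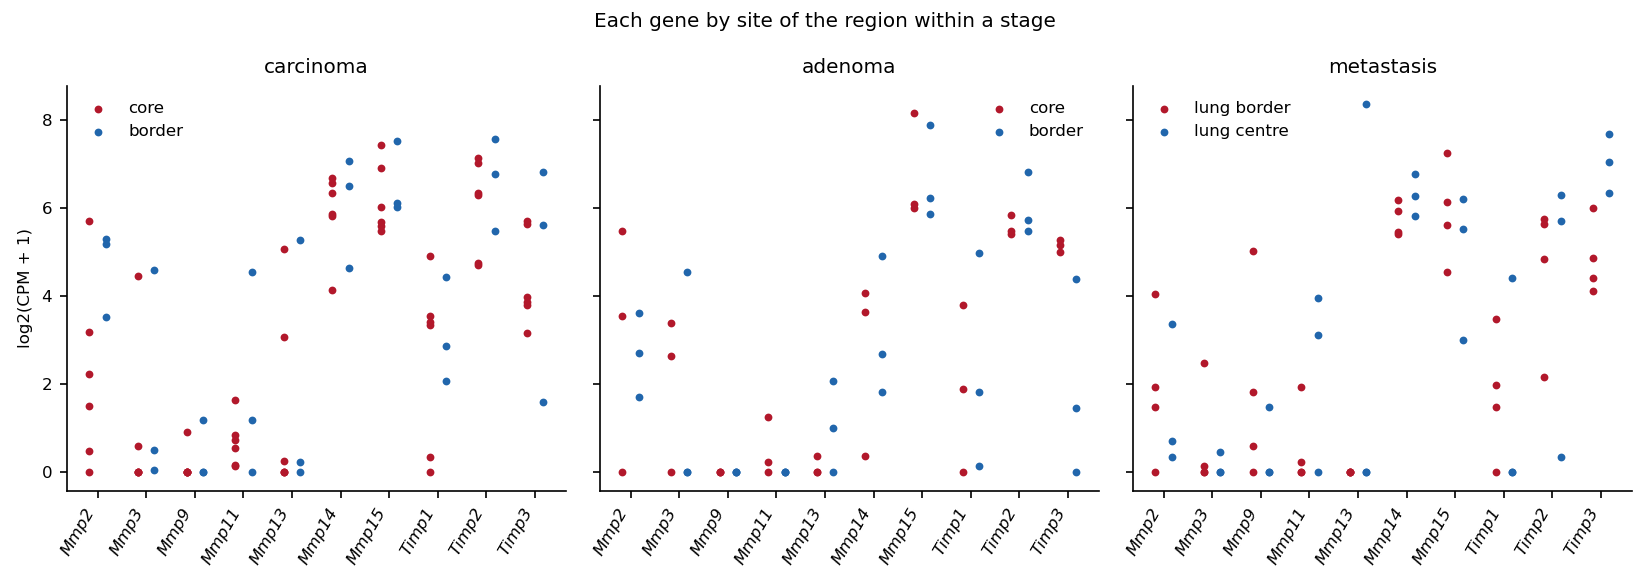
log2(CPM + 1) of each gene by site within carcinoma (6 core, 3 border), adenoma (3 core, 3 border) and metastasis (4 lung border, 3 lung centre); each point is a region. Timp3 points do not overlap between sites in adenoma and in metastasis.

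In adenoma, Timp3 had 31.3, 34.8 and 37.96 CPM in core regions 24, 25 and 51, against 20.0, 0 and 1.77 CPM in border regions 36, 47 and 48. The sites did not overlap for Timp3 alone, in a direction in which 3.49% of all genes separated. The mean was 34.7 ± 3.35 CPM in the core and 7.26 ± 11.1 CPM at the border (SD, n = 3 each), a log2 difference of 2.24 ± 1.27 (SE) with an edgeR adjusted p of 0.521. Without adenoma 36 the border mean was 0.885 CPM. The summed endothelial genes were 42.6, 64.2 and 1.14 CPM in core regions 24, 25 and 51. They were 1.06, 38.9 and 19.1 CPM in border regions 36, 47 and 48. In carcinoma Timp3 averaged 24.9 ± 19.7 CPM in the core and 53.8 ± 54.9 CPM at the border, but without carcinoma 39 the border mean was 24.98 CPM and the log2 difference 0.07. The test of whether the core-border difference itself differed between carcinoma and adenoma gave -3.35 ± 1.63 on the log2 scale and an edgeR adjusted p of 0.544. In adenoma edgeR called 0 members and 0.0% of genes, 0 members had an unadjusted p under 0.05 (9.68% of genes had), DESeq2 called Mmp11 and limma voom called 0.

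In the lung, Timp3 had 28.1, 20.4, 63.2 and 16.4 CPM in border regions 40, 56, 57 and 58, against 130, 80.5 and 203 CPM in centre regions 2, 27 and 42. The sites did not overlap, with all border regions lower, as for 1.31% of all genes. The mean was 32.01 ± 21.3 CPM at the lung border (SD, n = 4) and 138 ± 61.5 CPM in the lung centre (n = 3), a log2 difference of -2.11 ± 1.15 (SE) with an edgeR adjusted p of 0.553. The summed endothelial genes were 38.9 to 76.8 CPM in the border regions and 78.9 to 285 CPM in the centre regions. Mmp14 averaged 53.96 ± 14.4 CPM at the lung border and 79.8 ± 26.4 CPM in the lung centre. Mmp13, at 0 in all 4 border regions, was at least 1132-fold lower there than the lung centre mean of 109 CPM (floor of 3 counts over the group), but in the centre it was at 0 too in regions 2 and 27. Without metastasis 42 both sites were at 0. EdgeR called 0 members and 0.0% of genes here, only Mmp13 had an unadjusted p under 0.05 (8.8% of genes had), DESeq2 called Mmp13 and limma voom called 0.

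**Figure D5:**
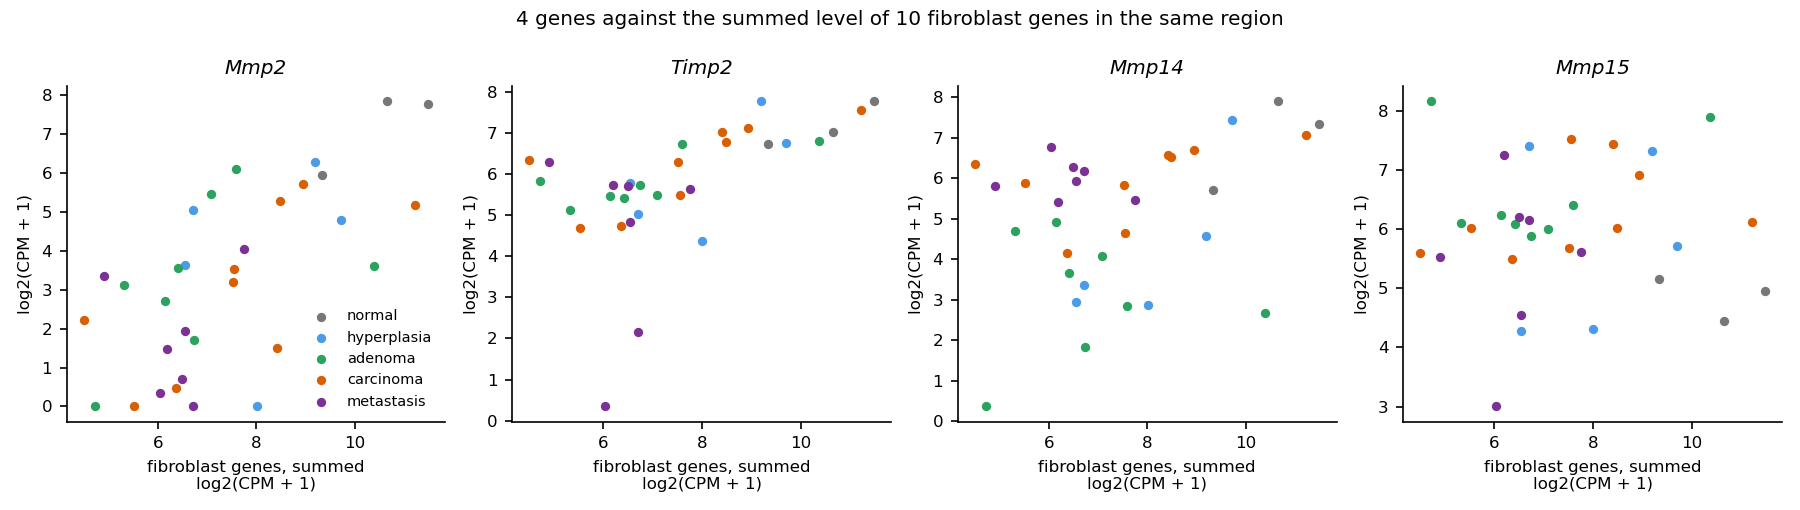
log2(CPM + 1) of Mmp2, Timp2, Mmp14 and Mmp15 against that of the summed 10 fibroblast genes in the same 32 regions, coloured by stage. Mmp2 and Timp2 have higher values at higher fibroblast sums (rho 0.68 and 0.64), and Mmp14 and Mmp15 less so (0.27 and 0.02).

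For each member with a mean of at least 5 CPM, the genes of most similar pattern were sought among 7274 genes with a mean of at least 20 CPM, by Spearman rho of log2(CPM + 1) over the 32 libraries. These values are a description, since libraries share animals, stage and depth. Mmp2 was most like Apoe (0.78), C1qc (0.70) and Col3a1 (0.68), which encode a lipid carrier of macrophages, a complement subunit and a fibrillar collagen. Timp2 was most like Tyrobp (0.79), an adaptor of myeloid cells, then Apoe (0.75) and Pmepa1 (0.71). Among the genes most like Mmp3 were Ccdc80 (0.67) and Hspg2 (0.63), and Timp1 was most like Ccdc80 (0.64), Serping1 (0.63) and Hspg2 (0.62). Mmp14 was most like Wnt5b (0.67), the integrin subunit Itga3 (0.66) and Wwp2 (0.66). Timp3 was most like Rassf4 (0.74), the membrane linker Msn (0.67) and Wwp2 (0.64). Mmp15 was most like Rpn1 (0.73), Copz1 (0.70) and Bckdha (0.69), the first a subunit of the enzyme that glycosylates proteins in the endoplasmic reticulum and the second a coat protein of secretory vesicles. Mmp13 had the weakest leading values, with Lama4 (0.56), Zfp937 (0.56) and Rora (0.55).

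Of 47 other genes of the protease network in 6 lists, 0 were called by edgeR in any stage or site comparison, the joint test included, in which 10 had an unadjusted p under 0.05, near the 20.9% of all genes. The genes named from each list are its pair with the highest mean CPM, which is not corrected for length. Among 14 other metalloproteases, 4 were higher and 10 lower in carcinoma than in normal gland, with a median log2 change of -0.48. Mmp16, a membrane-anchored enzyme, had 16.6 ± 16.1 CPM in metastasis (SD, n = 7) and 38.1 ± 38.8 CPM in carcinoma (n = 9), and Mmp19 had 18.5 ± 11.7 and 16.6 ± 18.5 CPM in the same groups. Of 7 other inhibitors, Cst3, a cathepsin inhibitor, averaged 440 ± 308 CPM in carcinoma and 242 ± 127 CPM in adenoma, and Serpine2, an inhibitor of plasminogen activators, had stage means of 22.7 to 41.1 CPM. All 4 plasminogen activation genes were lower in hyperplasia than in normal gland, with a median log2 change of -4.58, and all 4 were lower in carcinoma than in normal gland, with a median of -1.70. Of all genes, 49.4% and 47.2% were lower in these comparisons. In carcinoma against adenoma all 4 were higher, with a median of 0.58, where 49.2% of all genes were lower. Among them Plat, an activator of plasminogen, had stage means of 0.248 to 9.45 CPM and Plau, another, had 0.660 to 12.4 CPM. Of 10 Adam and Adamts proteases, 7 were higher and 3 lower in carcinoma than in adenoma, while 3 were higher and 7 lower in carcinoma than in normal gland. Adam10 and Adam17, which shed proteins from the cell surface, averaged 74.3 and 50.1 CPM over all regions. All 5 cathepsins, lysosomal proteases that include Ctsd and Ctsb, were lower in carcinoma than in normal gland with a median log2 change of -1.08. Of 7 regulators, 5 were higher and 2 lower in carcinoma than in adenoma, and 4 were higher and 3 lower in carcinoma than in normal gland. Bsg, a surface protein that induces metalloproteases, averaged 272 ± 94.6 CPM in carcinoma and 218 ± 112 CPM in adenoma, and Sparc, a collagen-binding matrix protein, averaged 174 ± 205 and 90.4 ± 69.9 CPM in the same groups.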

How the data were processed

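The authors deposited raw counts per gene ID for 32 captured regions, whole numbers without normalization, in 1 table whose 32 columns match the sample titles. Per the labels' protocols, 7 µm sections were laser-captured by reporter colour and poly(A) RNA was amplified by Geo-seq with Smart-seq2 oligos. The submitters' processing notes name STAR and mm10, and the labels name QuasR for the count table. Annotation, strand setting, treatment of multiple alignments and sequencing batch: not given in the sources used here. Symbols came from RefSeq on GRCm38.p6 (24374 of 24454 IDs matched) and exon lengths from GENCODE.

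Counts were filtered with filterByExpr, scaled by TMM and fitted over all libraries by stage (19907 genes) or by stage and position (22676 genes) with the edgeR 4.0.16 quasi-likelihood test, two-sided, Benjamini-Hochberg adjusted over all genes and called under 0.05 (R 4.3.3). Common dispersions were 2.64 and 2.35. Alternatives were DESeq2 1.42.0, limma 3.58.1 voom, other scalings, filters and sample sets. The fits were also run on simulated counts of independent libraries, for a single stage comparison and a single site comparison. Changes were planted only in abundant genes, so the simulation does not cover the low members or regions that share an animal. Reads carry no molecular identifiers, so floors cover counting error only. The members, lists, tests and the rule for named genes (all members, the 3 most alike genes of each, and the 2 genes of highest mean CPM in each list) were chosen with earlier results of these data known. One gene that the rule names is not reported here. Lists for pericytes, basal epithelium, macrophages and lymphocytes were summed too, and their stage means were 64.3 to 245, 73.3 to 208, 211 to 1094 and 8.11 to 400.5 CPM.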

Additional observations from a re-analysis of the deposited data

Results flagged for a closer look

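Single regions stood far from the rest of their group in 24 of 60 member groups of 4 to 10 regions, by the gap to the nearest other region relative to the group's range. The limit is set to flag about 1 in 20 groups of normally distributed values by chance. These levels, often at 0 with single high regions, are not so distributed, so the share flagged cannot be read against that rate. The causes were not tested.

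In hyperplasia, Mmp13 was 124 CPM and Mmp3 24.5 CPM in region 33, Mmp14 was 172 CPM in region 44, Mmp11 was 41.1 CPM in region 22, Timp3 was 27.6 CPM in region 21, and Mmp9 was 0.329 CPM in region 46. In adenoma, Timp1 was 30.7 CPM and Mmp3 22.4 CPM in region 47, Mmp13 was 3.18 CPM in region 36 and Mmp11 was 1.38 CPM in region 25.

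In carcinoma, Timp3 was 111 CPM in region 39 and Mmp11 was 22.4 CPM in region 55, against at most 51.5 and 2.13 CPM in the other 8. Among the 6 carcinoma core regions alone, Mmp2 was 51.2 CPM and Mmp11 2.13 CPM in region 7, Mmp13 was 32.7 CPM in region 53, Timp1 was 29.3 CPM in region 54, and Mmp3 was 21.1 CPM and Mmp9 0.892 CPM in region 6.

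In metastasis, Mmp13 was 326 CPM in region 42 and 0 in the other 6. Metastasis 40 stood apart for Mmp9 (31.5 CPM) and Mmp3 (4.61 CPM), among all metastases and again among the 4 at the lung border, where Mmp11 was 2.81 CPM in the same region.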

How the results depend on the processing

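No paired analysis was possible because the labels do not tie regions to animals. DESeq2 called 489 genes in hyperplasia against normal gland, 609 in adenoma against hyperplasia, 265 in carcinoma against adenoma, 186 in metastasis against carcinoma, 177 in carcinoma against normal gland and 338 for any stage. By site it called 435 in carcinoma, 1297 in adenoma and 947 in the lung. Limma voom called 105, 2, 7, 19, 316 and 354 in the same stage order and 5, 35 and 12 by site. With only the libraries of the pair, edgeR called 1 gene in hyperplasia against normal gland and 7 in carcinoma against normal gland. A term for detected genes gave 168 in carcinoma against adenoma and 0 in carcinoma against normal gland. Without a filter there were 5 in metastasis against carcinoma, 2 in carcinoma against normal gland, 3717 for any stage and 2 by site in adenoma. DESeq2 size factors, and leaving out the 3 libraries of fewest genes, gave 2 each in carcinoma against normal gland, and without those 3 libraries 126 were called for any stage.

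Of the members, DESeq2 called 1 each in hyperplasia against normal gland, carcinoma against adenoma, the adenoma sites and the lung sites. Limma voom called 2 in carcinoma against normal gland. A term for detected genes called 1 in carcinoma against adenoma and 1 for any stage, where no filter gave 4 and leaving out the 3 libraries gave 0. Leaving out 1 library at a time, edgeR called 479 to 1614 genes and 0 to 2 members for any stage, 3 to 4 genes in metastasis against carcinoma, and 0 to 1 in carcinoma against adenoma, carcinoma against normal gland and the carcinoma and adenoma sites. The change of Mmp14 in adenoma against hyperplasia turned to 0.10 without hyperplasia 44 and ran from -2.17 to 0.10 over these fits. Stage means without 1 library were an alternative chosen after seeing the data: Mmp13 in metastasis was 0 CPM in place of 46.6 without region 42, Mmp9 there 0.811 in place of 5.19 without region 40, and Mmp14 in hyperplasia 11.2 in place of 43.3 without region 44. The cause of the other shifts was not tested.

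Mmp9 had a count in 7 libraries only, and the high dispersion limits every comparison of 3 to 9 regions.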
